A study of Arabidopsis thaliana with 24 samples.

Results

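The 7 genes described here set up vascular tissue in the Arabidopsis root through a pair of transcription factors and the hormone cytokinin. They are TMO5 (AT3G25710, also called BHLH32), its paralog T5L1 (AT1G68810), LHW (AT2G27230), LOG3 (AT2G37210), LOG4 (AT3G53450), AHP6 (AT1G80100) and WOL (AT2G01830). They were taken by identifier from a table of 33602 genes, and 7 of the 7 were among the 23219 genes with enough counts to test. TMO5 and T5L1 are bHLH transcription factors of young xylem cells that pair with LHW, a bHLH factor with a broader pattern. The pair switches on LOG genes, whose enzymes release active cytokinin from its nucleotide form, and the cytokinin drives divisions in the neighbouring procambium. WOL, also known as CRE1 or AHK4, is a cytokinin receptor kinase of the vascular cylinder, and AHP6 is a pseudo-phosphotransfer protein that blocks cytokinin signalling in protoxylem.

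RNA was measured on ribosomes pulled down from roots through a tagged ribosomal protein, HF-RPL18, 6 days after seedlings were placed in light at 22 °C. Every plant carried the HF-RPL18 transgene, in the hyl1 mutant or in the Columbia-0 wild type (Col0). HYL1 binds double-stranded RNA and helps DCL1 cut microRNAs from their precursors, and the mutant allele is not given in the sources used here. The promoter in front of the tag set the cells sampled and named the line, which was 35S (broadly active), ACR4 (columella), SHR (stele, the vascular cylinder), SCR (endodermis), CO2 (cortex) or WER (epidermis). The 6 lines in 2 genotypes gave 12 groups of 2 libraries, each from about 20 plates. The labels leave the origin of the replicates unstated (the same or other cultures), and a p-value here therefore covers the spread between libraries only, which may be technical. A lower value can reflect fewer cells of a type or less ribosome-bound RNA per cell, and the measurement cannot tell these apart.

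Library totals ran from 2868803 to 13575556 counts, lowest in the SHR line and highest in the WER line. HYL1 had 1 to 43 counts in the 12 hyl1 libraries, against 34 to 145 in the 12 Col0 libraries (mean log2 fold change −1.67, SE 0.34, edgeR adjusted p = 0.00185). By line HYL1 was at −2.51 (SCR), −2.35 (WER), −1.82 (35S), −1.73 (ACR4), −1.03 (CO2) and −0.61 (SHR, SE 0.80), and of these the WER line passed (adjusted p = 0.0329). The 16 libraries of the 35S, ACR4, SCR and CO2 lines carry consecutive library numbers, and the SHR and WER lines each have a run of numbers of their own. A comparison of genotypes stays within 1 such run, while for the SHR and WER lines the run and the layer cannot be told apart in a comparison between lines. The summed CPM (read counts per gene scaled to a common library size) of 12 stele markers was 851.6 to 915.02 in hyl1 SHR libraries and 829.9 to 865.7 in Col0 SHR libraries, the 4 highest sums of the 24. The phloem markers among them (SUC2, APL, SEOR1, SEOa, CALS7) averaged less in the SHR than in the 35S line of both genotypes. Their Col0 means were 7.57, 5.63, 8.9, 13.9 and 6.44 CPM (SHR) against 16.5, 24.5, 35.5, 34.6 and 11.5 (35S). The other markers in the list averaged more in the SHR line. In the other layer lines the sum depended on the genotype. The sum was 318 to 333 CPM in hyl1 ACR4, against 111 to 127 in Col0 ACR4. It was 411 to 659 CPM in hyl1 WER, against 84.4 to 85.05 in Col0 WER. The sum of 5 epidermis markers was 96.2 to 145 CPM in hyl1 WER, against 199.97 to 213 in Col0 WER. Of these 5, edgeR called WER and GL2 lower in hyl1 WER and EXPA7 higher. They averaged 11.4, 28.15 and 41.8 CPM in hyl1 WER, against 32.1, 123.4 and 16.8 CPM in Col0 WER. The root cap marker sum was 43.8 to 69.05 CPM in hyl1 WER, against 214.9 to 249.1 in Col0 WER. Of the 4 root cap markers, SMB, BRN1 and BRN2 averaged 7.74, 10.8 and 5.17 CPM in hyl1 ACR4, against 44.7, 111 and 71.1 CPM in Col0 ACR4, while ACR4 itself averaged 1102 CPM in hyl1 ACR4 and 168 CPM in Col0 ACR4. The sum of the 4 was 1068 to 1184 CPM in hyl1 ACR4 and 372 to 418 CPM in Col0 ACR4. Both cortex markers stayed at or below 4.19 CPM in sum in all 24 libraries, so they do not show the layer of the CO2 line. The hyl1 WER replicates correlated least (r = 0.774 across genes, against 0.934 to 0.978 in the other 11 groups). The Col0 SCR replicates differed in their markers, with endodermis sums of 1988 and 467 CPM, stele sums of 158 and 245 CPM and root cap sums of 10.07 and 66.0 CPM in replicates 1 and 2.

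TMO5 and LHW were higher in hyl1, while T5L1 was not. In the mean of the 6 lines TMO5 was 1.103 log2 units higher in hyl1 (SE 0.13, edgeR adjusted p = 1.29e-05), LHW was 0.48 higher (SE 0.09, adjusted p = 0.00142), and T5L1 was at −0.42 (SE 0.17, adjusted p = 0.0890), which did not pass. The rises of TMO5 and LHW came with the ACR4 and WER lines, where stele markers were also higher in hyl1. Of the 7 genes, 2 rose and 1 fell, against 19.8% of all tested genes called in either direction, 7.84% higher (1821 genes) and the others (2786 genes) lower.

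TMO5 had 80.6 and 109 CPM in hyl1 35S libraries against 77.0 and 66.4 in Col0 35S libraries, and 82.7 and 70.5 CPM in hyl1 SHR against 105 and 72.6 in Col0 SHR. The 35S groups did not overlap, whereas the SHR groups did. It had 55.9 and 54.9 CPM in hyl1 ACR4 against 8.49 and 12.2 in Col0 ACR4, and 56.9 and 42.2 CPM in hyl1 WER against 3.36 and 7.59 in Col0 WER. In the SCR line it had 24.5 and 30.4 CPM in hyl1 against 12.4 and 11.4 in Col0, and in the CO2 line 24.3 and 19.3 CPM in hyl1 against 30.9 and 24.96 in Col0. Both hyl1 libraries thus lay above both Col0 libraries in 4 lines and below them in 1, the CO2 line.

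By line, TMO5 rose in hyl1 in the ACR4 line by 2.42 log2 units (SE 0.33, edgeR adjusted p = 1.16e-04) and in the WER line by 3.16 (SE 0.34, adjusted p = 3.46e-06). The SCR line gave 1.20 (SE 0.32, adjusted p = 0.0708), which passed without any of the 4 WER libraries (adjusted p = 0.0260 to 0.0285 with 1 of them left out, 0.00566 without all 4) and in DESeq2 (0.0113). Without Col0 SCR replicate 2, the library with the low endodermis sum, the SCR value of TMO5 was 1.15, that of LHW 0.34 and that of T5L1 0.13, against −0.26 for T5L1 with all libraries, and none of these passed. TMO5 did not pass in the 35S line (0.41), the SHR line (−0.21) or the CO2 line (−0.36). The effect of hyl1 on TMO5 differed between the 6 lines (F = 20.0, adjusted p = 8.6e-05, a test that 17.8% of all genes passed). Without the ACR4 and WER lines the mean effect on TMO5 was 0.27 (adjusted p = 0.297), and over the 35S, SHR and CO2 lines alone it was −0.04 (adjusted p = 0.940).

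LHW was even across most libraries and low in those 2 lines of Col0. It had 55.4 and 54.5 CPM in hyl1 ACR4 against 21.2 and 25.5 in Col0 ACR4, and 46.2 and 50.2 CPM in hyl1 WER against 28.3 and 19.1 in Col0 WER. In the SCR line it had 71.9 and 69.0 CPM in hyl1 against 55.8 and 39.9 in Col0. These are 3 lines without overlap. It had 60.2 and 58.3 CPM in hyl1 35S against 62.4 and 57.9 in Col0 35S, 81.6 and 63.1 CPM in hyl1 SHR against 75.9 and 67.4 in Col0 SHR, and 52.2 and 60.4 CPM in hyl1 CO2 against 46.6 and 59.5 in Col0 CO2. These groups overlapped.

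LHW rose in hyl1 by 1.23 log2 units in the ACR4 line (SE 0.24, edgeR adjusted p = 0.00158) and by 1.03 in the WER line (SE 0.23, adjusted p = 0.00215), where the median of all genes was itself −0.24. The SCR line gave 0.56 (adjusted p = 0.388), and the 35S, SHR and CO2 lines lay between −0.02 and 0.09. Without the ACR4 and WER lines the mean effect was 0.17 (adjusted p = 0.527). The effect differed between lines (F = 5.55, adjusted p = 0.0229), a call lost without Col0 35S replicate 1, hyl1 35S replicate 2, Col0 ACR4 replicate 1, hyl1 ACR4 replicate 1 or hyl1 ACR4 replicate 2 (adjusted p = 0.0511 to 0.0794). The LHW row held the same count as that of AT2G27228 in 24 of 24 libraries. AT2G27228 is not among the genes of the TAIR10.1 reference, where no other gene overlaps LHW. How these rows relate, and which gave the reads, cannot be told from the counts.

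TMO5 and LHW were therefore the only members called in hyl1 in the ACR4 line (2 of 7, against 6.29% of all genes higher) and in the WER line (2 of 7, against 15.8% higher). Fitted on the 4 WER libraries alone, neither passed (adjusted p = 0.0688 for TMO5 and 0.193 for LHW). Stele markers rose in the same lines, 7 of 12 in the ACR4 line and 9 of 12 in the WER line, none fell, and all 12 were detected in each group. Endodermis markers rose too, 4 of 7 and 6 of 7. The part of other cell types in the rises of TMO5 and LHW was not tested. In the other lines edgeR called 0 of 7 members, against 0.0991% of all genes in the 35S line, 0.0818% in the SHR line, 1.89% in the SCR line and 0.146% in the CO2 line. At an unadjusted p under 0.05 these lines had 0, 1, 2 and 1 members, and DESeq2 called 0, 0, 1 and 0.

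**Figure D1:**
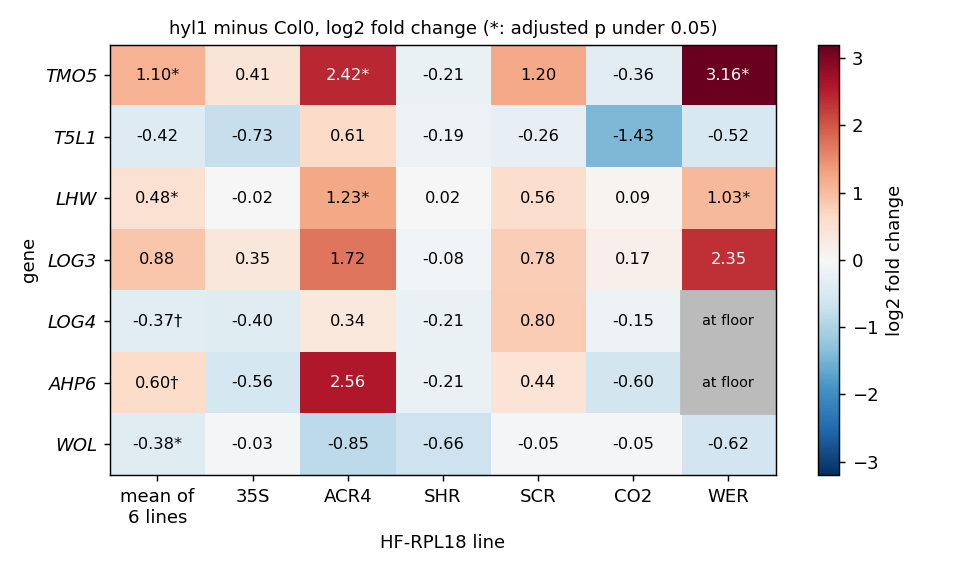
Log2 fold change of hyl1 minus Col0 for each gene (rows) averaged over lines and line by line (columns), with an asterisk where the edgeR adjusted p was under 0.05. TMO5 (2.42 and 3.16) and LHW (1.23 and 1.03) carry the calls in the ACR4 and WER lines. Grey cells are at or under 3 counts in both groups or have a group at 0, and a dagger marks a mean that includes such a line.

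T5L1 behaved differently from its paralog. It had 36.5 and 48.7 CPM in hyl1 35S against 73.8 and 67.6 in Col0 35S, and 7.65 and 9.82 CPM in hyl1 CO2 against 22.2 and 24.96 in Col0 CO2. Both hyl1 libraries lay below both Col0 libraries in these 2 lines. It had 14.9 and 16.7 CPM in hyl1 ACR4 against 7.78 and 12.9 in Col0 ACR4, where hyl1 was the higher. In the SHR line it had 129 and 99.5 CPM in hyl1 against 161 and 98.8 in Col0. It had 13.9 and 11.98 CPM in hyl1 SCR against 11.8 and 19.03 in Col0 SCR, and 9.68 and 8.38 CPM in hyl1 WER against 5.96 and 19.8 in Col0 WER. The hyl1 and Col0 ranges overlapped in these 3 lines.

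No line passed for T5L1 in the fit over all libraries. The CO2 line had the largest change, at −1.43 (SE 0.43, edgeR adjusted p = 0.440), and passed without the WER libraries (adjusted p = 0.0337). In the WER line T5L1 passed at −1.14 without Col0 WER replicate 1 (adjusted p = 0.0253). The mean effect passed without the ACR4 and WER lines, at −0.64 (edgeR adjusted p = 0.0142), and over the 35S, SHR and CO2 lines, at −0.77 (0.00500). Both sets of lines were chosen after seeing the data and leave out the ACR4 line, where T5L1 was higher in hyl1. Over the 16 libraries with consecutive numbers the mean effect passed at −0.44 (edgeR adjusted p = 0.0475). It was −0.52 without Col0 WER replicate 1 and −0.44 without hyl1 WER replicate 1. The difference between lines was not called for T5L1 (F = 2.54, adjusted p = 0.203), but was without the WER libraries (adjusted p = 0.0243) and without Col0 WER replicate 1 (0.0392) or replicate 2 (0.0324).

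The balance between the paralogs therefore shifted, and a count ratio within a library shows it free of library scaling. TMO5 had 2.21 and 2.24 counts per T5L1 count in hyl1 35S against 1.04 and 0.983 in Col0 35S, and 3.74 and 3.29 in hyl1 ACR4 against 1.09 and 0.943 in Col0 ACR4. The ratio was 1.77 and 2.54 in hyl1 SCR against 1.05 and 0.602 in Col0 SCR, and 3.18 and 1.96 in hyl1 CO2 against 1.39 and 1.0 in Col0 CO2. In the WER line it was 5.88 and 5.04 in hyl1 against 0.564 and 0.383 in Col0. Every hyl1 library in these 5 lines was above every Col0 library of its line. The SHR line stood apart, with 0.643 and 0.709 in hyl1 against 0.651 and 0.735 in Col0. HYL1 itself was at −0.61 in the SHR line (SE 0.80) and at −1.03 in the CO2 line (SE 0.81), and a link between HYL1 and the ratio was not tested.

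Over the 6 lines the log2 ratio of TMO5 to T5L1 was 1.49 higher in hyl1 (mean log2 ratio 1.21 in hyl1 and −0.28 in Col0). A two-sided exact permutation test of genotype within lines gave p = 2.14e-04 over 46656 arrangements, where the smallest possible is 4.29e-05, and 3.21e-04 adjusted over the 3 ratios among TMO5, T5L1 and LHW. These ratios were chosen after their values were seen. The difference was 0.90 without the ACR4 and WER lines (exact p = 0.00772) and 0.73 over the 35S, SHR and CO2 lines (exact p = 0.0463). T5L1 per LHW count was lower in hyl1 in 6 of 6 lines, by −0.85 on the log2 scale (exact permutation p = 2.14e-04, adjusted 3.21e-04). TMO5 per LHW count was 0.64 higher, in 4 of 6 lines (exact permutation p = 0.0206), and this did not hold without hyl1 WER replicate 1 (exact p = 0.0548) or Col0 CO2 replicate 2 (exact p = 0.0504), or without the ACR4 and WER lines, where it was 0.10 (exact p = 0.616).

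**Figure D2:**
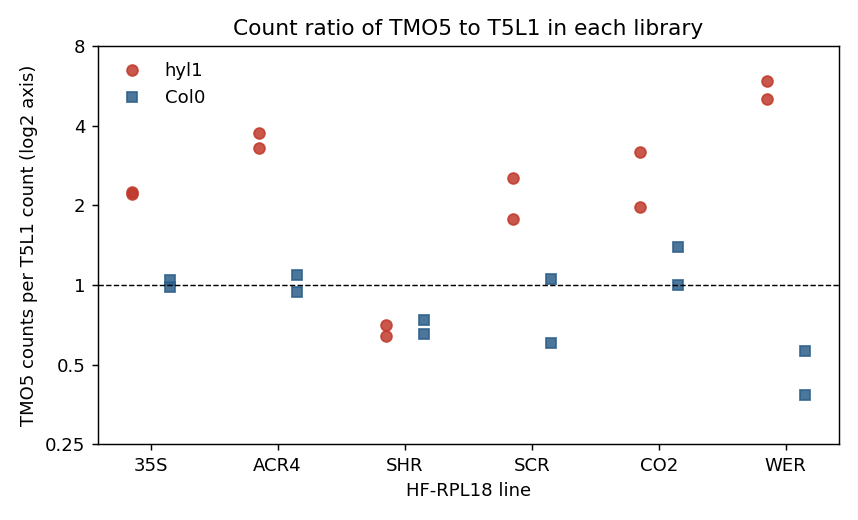
Counts of TMO5 per count of T5L1 in each of 24 libraries (points, log2 axis), by line, with hyl1 as circles and Col0 as squares. The hyl1 libraries lie at 1.77 to 5.88 in 5 lines, against 0.383 to 1.39 in Col0, while the 4 SHR libraries lie together at 0.643 to 0.735.

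WOL, the receptor, was the member called lower. It had 44.7 and 40.3 CPM in hyl1 ACR4 against 80.7 and 72.1 in Col0 ACR4, 31.4 and 46.9 CPM in hyl1 SHR against 55.0 and 69.0 in Col0 SHR, and 32.5 and 75.1 CPM in hyl1 WER against 86.7 and 78.4 in Col0 WER. Both hyl1 libraries were below both Col0 libraries in these 3 lines. In the 35S line it had 57.1 and 51.6 CPM in hyl1 against 51.2 and 59.7 in Col0, in the SCR line 63.0 and 60.03 CPM in hyl1 against 55.1 and 72.5 in Col0, and in the CO2 line 54.4 and 57.8 CPM in hyl1 against 53.7 and 62.5 in Col0. These overlapped.

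The mean of the hyl1 libraries was below that of Col0 in 6 of 6 lines, and the mean effect was −0.38 (SE 0.12, edgeR adjusted p = 0.0338). This call was fragile. It was lost with another scaling (RLE, adjusted p = 0.0561), with no filter on low counts (0.0962), over the 16 libraries with consecutive numbers (0.134), without the ACR4 and WER lines (0.491), over the 35S, SHR and CO2 lines (0.435) and in 16 of the 24 fits with 1 library left out (adjusted p up to 0.132). It held without Col0 replicate 1 of the 35S, SCR, CO2 or SHR line, hyl1 SHR replicate 2, Col0 WER replicate 2, or either hyl1 WER replicate. The ACR4 line alone gave −0.85 (SE 0.30, adjusted p = 0.0640) and passed without hyl1 WER replicate 1 (adjusted p = 0.00652) or replicate 2 (0.0112), without all WER libraries (0.00601) and in the fit of the ACR4 line alone (0.00303). In the WER line WOL passed at −1.29 without hyl1 WER replicate 2 (adjusted p = 0.00144), the library with 75.1 CPM, and so did its difference between lines (adjusted p = 0.0279).

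LOG3, LOG4 and AHP6 had low counts, LOG3 and AHP6 most of all outside the SHR line, and none was called between genotypes in the fit over all libraries. LOG3 had 0 to 46 counts in a library, LOG4 0 to 30 and AHP6 0 to 19, so changes in these genes were hard to detect at this depth. LOG3 had 9.83 and 9.10 CPM in hyl1 SHR against 7.99 and 11.9 in Col0 SHR. In the 20 other libraries it had 0 to 3.78 CPM, with 3.26 and 0 CPM in hyl1 WER. Its mean hyl1 effect was 0.88 (SE 0.47, edgeR adjusted p = 0.210), and it passed without hyl1 WER replicate 2, one of the 2 libraries at 0, in the mean (1.08, adjusted p = 0.0173) and in the WER line (3.43, adjusted p = 0.00789). In the WER line it also passed without Col0 WER replicate 1 (adjusted p = 0.0434), where the remaining Col0 library was at 0.

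LOG4 had 4.64 and 2.56 CPM in hyl1 SHR against 5.53 and 2.85 in Col0 SHR, and 4.57 and 3.03 CPM in hyl1 SCR against 3.26 and 1.08 in Col0 SCR. In the CO2 line it had 3.13 and 1.32 CPM in hyl1 against 3.37 and 1.60 in Col0. The SCR and SHR libraries of LOG4 overlapped in both genotypes. It had 0 and 0 counts in hyl1 WER against 0 and 2 in Col0 WER, and 0.589 to 1.73 CPM in the 8 ACR4 and 35S libraries. The mean hyl1 effect on LOG4 did not pass (adjusted p = 0.426). A long non-coding RNA, AT3G08340, overlaps LOG4 on the other strand in the TAIR10.1 annotation, and the use of strand in counting is not given in the sources used here.

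AHP6 had 3.55 and 4.83 CPM in hyl1 SHR against 5.84 and 3.89 in Col0 SHR. In the 20 libraries of the other lines it had 0 to 1.26 CPM, and 6 of them were at 0, among them both Col0 WER libraries. A count of 0 in both allows up to 0.142 CPM there (3 counts over the group, counting error only). Its mean hyl1 effect did not pass (adjusted p = 0.498).

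**Figure D3:**
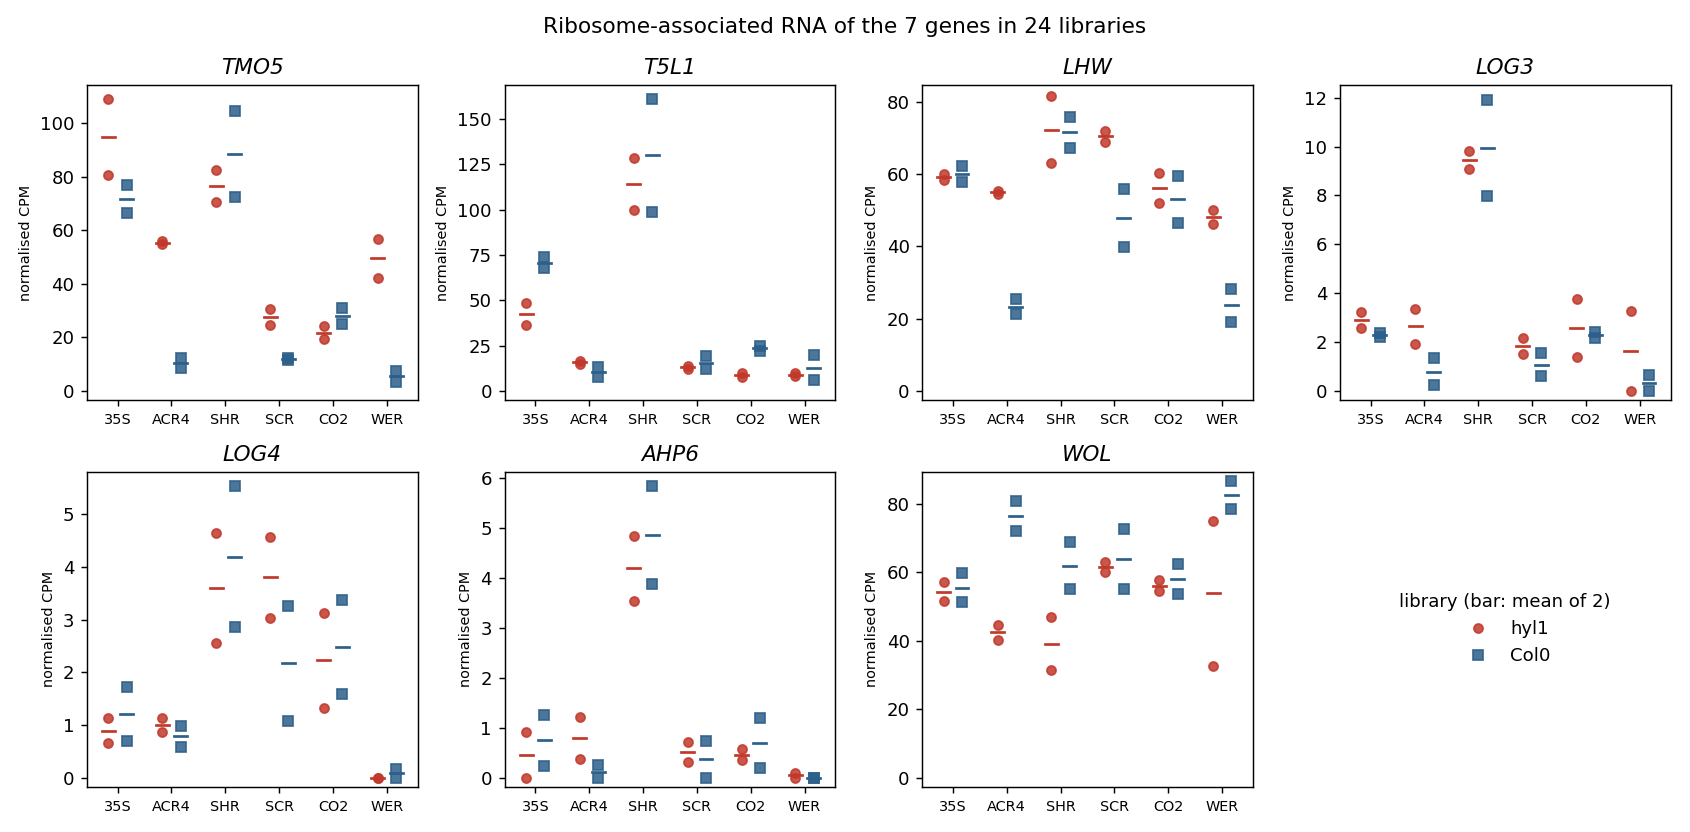
Normalised CPM (y axes, linear) of the 7 genes in each of 24 libraries by line, with hyl1 as circles left of Col0 as squares and a bar at the mean of 2. TMO5 and LHW in hyl1 stand above Col0 in the ACR4 and WER lines, while LOG3 and AHP6 stand out in the SHR line of both genotypes.

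The SHR line was then set against the mean of the 4 other layer lines in each genotype, which asks how far each gene stood out in that line. AHP6 reached the minimum count through the SHR libraries alone, so it had to be higher there and is left out of these counts. Of the 6 others, 3 were higher in the SHR line in hyl1, against 7.15% of all genes higher, and 5 in Col0, against 9.60% of all genes. WOL was the member that passed in neither genotype, at −0.44 in hyl1 (SE 0.25, edgeR adjusted p = 0.295) and −0.16 in Col0 (SE 0.24, adjusted p = 0.703), though in hyl1 it passed without hyl1 WER replicate 1 (−0.56, adjusted p = 0.0297).

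T5L1 had a contrast of 3.34 in hyl1 (SE 0.28, edgeR adjusted p = 8.22e-07) and 3.12 in Col0 (SE 0.27, adjusted p = 5.34e-07). TMO5 had a smaller contrast in hyl1, 1.096 (SE 0.23, adjusted p = 0.00479), than in Col0, 2.91 (SE 0.22, adjusted p = 8.45e-08). The difference between genotypes was −1.82 for TMO5 (SE 0.35, adjusted p = 0.0177) and 0.21 for T5L1 (SE 0.44, adjusted p = 0.911). TMO5 was the only member of 7 called in this test, which 1.46% of all genes passed and where the median of all genes was 0.11. Of the 12 stele markers, 3 were also called in it, all lower in hyl1, with a median of −0.86 over the 12. The 7 endodermis markers had a median of −1.74 and 0 calls. The part of these cell types in the TMO5 difference was not tested. The call on TMO5 was lost without Col0 SHR replicate 1 (adjusted p = 0.147), hyl1 SHR replicate 1 (0.112) or hyl1 SHR replicate 2 (0.136). In hyl1 the TMO5 contrast itself was lost without hyl1 SHR replicate 1 (0.94, adjusted p = 0.129). TMO5 in the SHR line itself was 70.5 to 82.7 CPM in hyl1 and 72.6 to 105 CPM in Col0, where the groups overlapped, while in the ACR4, SCR and WER lines both hyl1 libraries were above both Col0 libraries.

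LHW gave 0.35 in hyl1 (SE 0.18, edgeR adjusted p = 0.251) and 1.06 in Col0 (SE 0.17, adjusted p = 3.12e-04), with a difference of −0.71 (SE 0.26, adjusted p = 0.198). LOG3 gave 2.15 in hyl1 (SE 0.78, adjusted p = 0.0874) and 3.48 in Col0 (SE 0.78, adjusted p = 0.00392). In hyl1 it passed without hyl1 WER replicate 1 (3.76, adjusted p = 3.44e-04), hyl1 WER replicate 2 (1.87, adjusted p = 0.0165) or all WER libraries (2.03, adjusted p = 0.00230). In Col0 it did not pass without Col0 SHR replicate 2 (adjusted p = 0.0676). The difference between genotypes did not pass for LOG3 (adjusted p = 0.719).

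AHP6 and LOG4 each had a WER group at 0, so their fitted contrasts depend on the prior count, and values without the WER libraries are given. As a description, AHP6 was then 2.83 higher in hyl1 SHR and 3.84 higher in Col0 SHR on the log2 scale. LOG4 without the WER libraries was at 0.82 in hyl1 (adjusted p = 0.313) and 1.36 in Col0 (adjusted p = 0.0684) and passed in neither. With all lines LOG4 passed in both genotypes, and the edgeR call was lost in hyl1 without hyl1 SHR replicate 1 (adjusted p = 0.244) or replicate 2 (0.0653), and in Col0 without Col0 SHR replicate 1 (0.226).

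**Figure D4:**
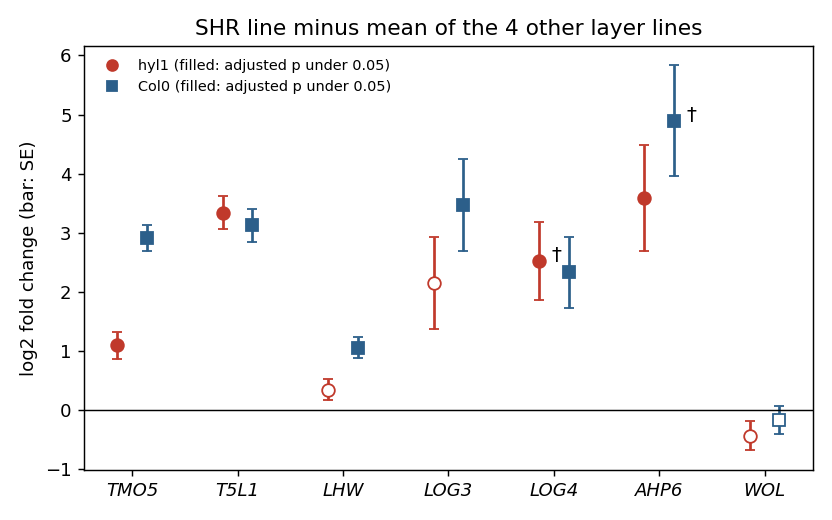
Log2 fold change (y axis, bars are SE) of the SHR line minus the mean of the ACR4, SCR, CO2 and WER lines for each gene (x axis), with hyl1 as circles and Col0 as squares, filled where the edgeR adjusted p was under 0.05. T5L1 is at 3.34 in hyl1 and 3.12 in Col0, TMO5 is 1.096 in hyl1 and 2.91 in Col0, and a dagger marks values that rest on a WER group at 0. AHP6 entered the fit through its SHR libraries, so its filled points are a description.

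Against the 35S line, which samples the root more broadly, few members passed, though several were far apart in level. In hyl1, 1 of 7 members was called higher in the SHR line, T5L1 at 1.42 (SE 0.40, edgeR adjusted p = 0.0223), against 8.55% of all genes. That call was lost without any 1 of the 4 hyl1 libraries of the 2 lines (adjusted p = 0.0567 without hyl1 SHR replicate 2, 0.0808 without hyl1 35S replicate 2, and 0.205 without replicate 1 of either line). In Col0 edgeR called 0 of 7, against 6.80% of all genes higher, and DESeq2 called 0. T5L1 and LOG4 had an unadjusted edgeR p under 0.05 there (0.0394 and 0.0429). Without the WER libraries T5L1, LOG3 and LOG4 passed in hyl1, and T5L1 and LOG3 in Col0. AHP6 entered the fit through its SHR libraries, so its calls are left out here. LOG4 was 2.00 higher in hyl1 SHR (SE 0.85, edgeR adjusted p = 0.141) and 1.81 higher in Col0 SHR (SE 0.83, adjusted p = 0.189). AHP6, as a description, had 3.55 and 4.83 CPM in hyl1 SHR against 0 and 0.909 in hyl1 35S, and 5.84 and 3.89 CPM in Col0 SHR against 1.26 and 0.235 in Col0 35S, with no overlap. LOG3 was at 1.70 in hyl1 and 2.13 in Col0 (SE 1.096 in hyl1 and 1.11 in Col0), and in Col0 it passed without hyl1 WER replicate 1 (adjusted p = 0.0399) or replicate 2 (0.0456). TMO5 was at −0.31 in hyl1 and 0.31 in Col0 (SE 0.30 in both).

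Across all 15 pairs of lines, TMO5 differed in 7 in hyl1 and 11 in Col0, T5L1 in 8 and 8, LHW in 0 and 8, and WOL in 0 and 0. The share of calls over all genes and pairs was 15.3% in hyl1 and 14.7% in Col0. LOG4 had 5 and 4 calls, all in pairs with the WER line, where it had 0 counts in hyl1 and 2 in Col0. These calls therefore rest on a group at or near 0. LOG3 had 0 and 2 calls, and AHP6 is left out for the reason given above. TMO5 in hyl1 ordered as 35S, SHR, ACR4, WER, SCR and CO2, with means of 94.9, 76.6, 55.4, 49.5, 27.5 and 21.8 CPM, and of these neighbours the WER and SCR lines differed (edgeR adjusted p = 0.0386). In Col0 it ordered as SHR, 35S, CO2, SCR, ACR4 and WER, at 88.7, 71.7, 27.9, 11.9, 10.4 and 5.48 CPM, and of the neighbours the 35S and CO2 lines differed (adjusted p = 0.00664). The ACR4 line was thus the third highest for TMO5 in hyl1 and the fifth in Col0.

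T5L1 was highest in the SHR line and next in the 35S line in both genotypes, at 114 and 42.6 CPM in hyl1 and 130 and 70.7 CPM in Col0. The 4 remaining lines held 8.74 to 15.8 CPM in hyl1 and 10.4 to 23.6 CPM in Col0, and no neighbours among them differed. LHW ran from 48.2 CPM (WER) to 72.4 CPM (SHR) in hyl1, with no neighbours that differed, and from 23.4 CPM (ACR4) to 71.6 CPM (SHR) in Col0, with a step between the SCR and WER lines (edgeR adjusted p = 0.00390). WOL had its highest group mean in the WER line in Col0, at 82.5 CPM, and in the SCR line in hyl1, at 61.5 CPM. Per kilobase of exon, averaged over the 24 libraries, the level was 29.6 CPM for TMO5, 19.9 for T5L1, 19.7 for LHW, 12.9 for WOL, 2.53 for LOG3, 2.12 for LOG4 and 1.12 for AHP6.

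Read against the stele marker sum of each library, TMO5, T5L1 and WOL spread differently. The sum was 514 to 549 CPM in hyl1 35S and 468 to 522 in Col0 35S, 260.05 to 279 in hyl1 SCR and 158 to 245 in Col0 SCR, and 266 to 273 in hyl1 CO2 and 427 to 436 in Col0 CO2. In the CO2 line the sum, TMO5 and T5L1 were all lower in hyl1 than in Col0. In hyl1 WER the sum averaged 535 CPM, of which the phosphate exporter gene PHO1 gave 312 CPM, and in hyl1 35S it averaged 532 CPM, of which PHO1 gave 144 CPM. The makeup of the sum therefore differed between lines, and T5L1 averaged 9.03 CPM in hyl1 WER and 42.6 CPM in hyl1 35S. WOL averaged 39.2 CPM in hyl1 SHR and 62.0 in Col0 SHR, where the sums averaged 883 and 848.

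**Figure D5:**
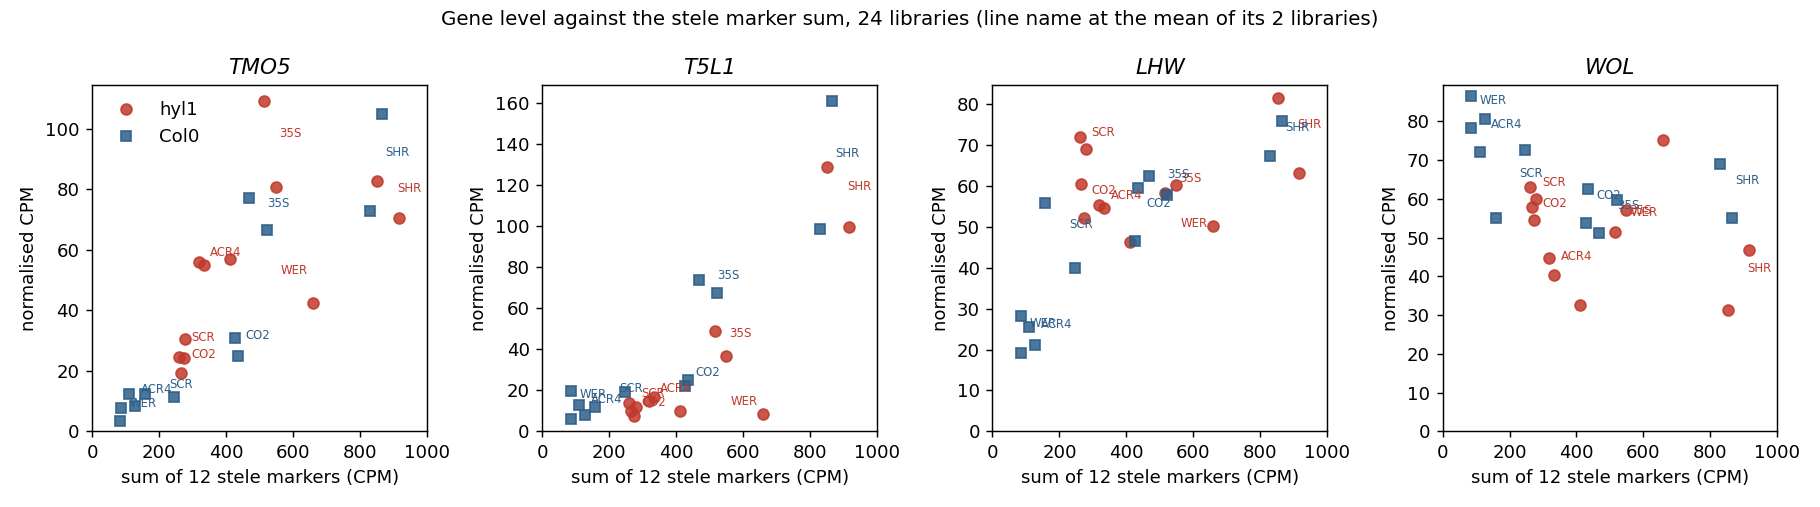
Normalised CPM of TMO5, T5L1, LHW and WOL (y axes) against the summed CPM of 12 stele markers (x axes) in 24 libraries, with hyl1 as circles and Col0 as squares. In the hyl1 WER libraries, with sums of 659 and 411 CPM (PHO1 alone averaged 312 CPM), T5L1 is at 8.38 and 9.68 CPM and TMO5 at 42.2 and 56.9 CPM.

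The wider pathway was followed in 63 further genes, of which 60 could be tested. In the mean of the 6 lines 12 were higher in hyl1 and 5 lower, with a median log2 fold change of 0.17 against −0.07 over all tested genes. Of all 23219 genes tested, 7.84% (1821) were higher and 2786 lower, so the 5 lower genes are no more than that background. The higher genes were mostly partners of the bHLH pair and vascular DOF factors, and the lower ones mostly cytokinin response regulators. Without the ACR4 and WER lines the counts were 1 higher and 5 lower, over the 35S, SHR and CO2 lines 0 and 6, and without the WER libraries 7 and 7. Leaving out hyl1 WER replicate 1 or 2 gave 11 or 12 lower.

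Of 11 partners and regulators of the pair, 5 rose in hyl1 and 0 fell. In the same comparison 8 of 12 stele markers and 5 of 7 endodermis markers rose and 1 stele marker fell, and edgeR called none of the 11 in the 35S, SHR, SCR or CO2 line. The part of these cell types in the rise was not tested. ACL5, whose product makes thermospermine, averaged 58.6 ± 45.4 CPM in hyl1 and 42.8 ± 46.6 in Col0 (SD over 12 libraries each), with a log2 fold change of 0.97 over lines (edgeR adjusted p = 0.00193). SACL1, SACL2, SACL3 and SAC51 encode bHLH proteins that oppose the TMO5-LHW pair, and their uORF-bearing transcripts respond to thermospermine. They rose by 0.83, 0.94, 0.57 and 0.51 (adjusted p = 9.16e-04, 0.00201, 0.0228 and 0.00238). The rows of SAC51, SACL1 and SACL2 had counts equal to those of 3, 3 and 2 other rows in 24 of 24 libraries, so which feature gave the reads cannot be told. ACL5 and SACL2 were also higher in the SHR line of Col0, with values given further on.

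Of 6 vascular DOF factors, 3 rose: DOF2.1 by 1.004 (adjusted p = 4.25e-04), DOF5.6 by 1.19 (0.0463) and DOF1.1 by 0.63 (0.00794), by edgeR. The DOF5.6 mean includes 5.03 in the WER line, where its Col0 libraries had 0 and 0.0844 CPM. In the 35S, SHR, SCR and CO2 lines DOF5.6 was at 0.11, −0.33, 0.43 and −0.02. DOF2.1 averaged 57.2 ± 20.2 CPM in hyl1 and 45.5 ± 41.9 in Col0. Of the other LOG genes, 5 of 7 were tested. LOG5 rose by 2.06 (adjusted p = 0.0124), at 4.21 ± 2.09 CPM in hyl1 and 1.20 ± 1.11 in Col0, while LOG7 fell by 0.62 (adjusted p = 0.00425), at 20.9 ± 8.41 CPM in hyl1 and 32.5 ± 14.4 in Col0 (SD, 12 libraries each).

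None of the 8 cytokinin synthesis genes was called by edgeR in the mean of the 6 lines. In the ACR4 line 2 of them rose in hyl1 and in the WER line 3, against 6.29% and 15.8% of all genes. Of 7 genes for cytokinin oxidases, which break the hormone down, CKX1 rose by 1.23 in the mean of the lines (edgeR adjusted p = 0.00261) and CKX7 by 1.25 (0.0104). Among 7 genes of receptors and phosphotransfer proteins the receptor AHK2 rose by 0.43 (0.0161). Both called type-B response regulators, the transcription factors of the pathway, were lower. ARR10 fell by 0.70 (adjusted p = 7.29e-05), at 34.1 ± 6.05 CPM in hyl1 and 59.9 ± 27.8 in Col0, and ARR12 fell by 0.64 (adjusted p = 2.42e-04). Of 10 type-A regulators, which damp the response, ARR3 fell by 0.95 (edgeR adjusted p = 8.38e-04) and ARR4 by 0.45 (0.00243), and 0 rose in the mean of the lines. In the WER line 1 of the 10 rose and 2 fell, against 15.8% of all genes higher and 23.3% lower. The effect differed between lines for 2 of the 10, against 17.8% of all genes.

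In single lines, 12 pathway genes were higher and 5 lower in hyl1 in the ACR4 line, against 6.29% and 8.42% of all genes. Without Col0 ACR4 replicate 1 or 2 there were 3 or 7 higher and 2 lower, without hyl1 ACR4 replicate 1 there were 6 and 2, and without hyl1 ACR4 replicate 2 there were 6 higher. The fit of that line alone gave 22 higher and 10 lower, the fit without the WER libraries 20 and 8, and that with no filter on low counts 2 lower. In the WER line 22 were higher and 9 lower, against 15.8% and 23.3% of all genes, with 14 lower without hyl1 WER replicate 1, and 0 in either direction in the fit of that line alone. EdgeR called 0 of the 60 in each of the 35S, SHR, SCR and CO2 lines, where 5, 4, 4 and 7 had an unadjusted p under 0.05 and DESeq2 called 0 in each.

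In the SHR line contrast 6 of the 60 pathway genes were higher and 4 lower in hyl1, against 7.15% of all genes higher and 3.86% lower. In Col0 17 were higher and 4 lower, against 9.60% of all genes higher and 9.52% lower. In hyl1, 11 were higher without the WER libraries or either hyl1 WER replicate, and 3 higher and 1 lower without hyl1 SHR replicate 2, and 0 were lower without hyl1 SHR replicate 1. In Col0, 11 were higher and 1 lower without Col0 SHR replicate 1, 2 were lower without Col0 SHR replicate 2, and 7 were lower without either hyl1 WER replicate. In Col0 9 of 11 partners were higher, among them ACL5 at 3.42 (edgeR adjusted p = 1.26e-06), T5L2 at 2.97 (0.0149), T5L3 at 2.88 (2.00e-05) and SACL2 at 2.54 (3.35e-05). ACL5 had 128 and 130 CPM in the Col0 SHR libraries, against 3.54 to 29.4 CPM in the 8 other Col0 layer libraries.

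Of the DOF factors, 4 of 6 were higher in Col0 SHR, at 2.65 for DOF5.3, 2.46 for DOF2.1, 1.64 for DOF1.1 and 1.56 for PEAR1 (edgeR adjusted p = 5.84e-07, 1.34e-05, 4.96e-04 and 0.0486). LOG1 was higher by 2.09 (0.00212), the cytokinin hydroxylase gene CYP735A2 by 1.40 (7.52e-04), CKX3 by 1.77 (0.0196) and CKX1 by 1.56 (0.0296). The receptor gene AHK3 was lower by 1.05 (0.00125), AHP1 by 1.07 (0.00670), ARR10 by 0.80 (0.00790) and ARR3 by 1.25 (0.0232). These 4 lower genes of the 60 are no more than the background of 9.52% of all genes. In the test of this contrast between genotypes 3 of 12 stele markers were called, all lower in hyl1. Of all genes 1.46% passed this test, and the median of all genes was 0.11. The contrast also differed between genotypes for 3 of the 60, all DOF factors and all smaller in hyl1: DOF2.1 by −1.93 (adjusted p = 0.0451), DOF1.1 by −1.84 (0.0446) and DOF5.3 by −1.77 (0.0294). This number was not stable: with 1 library left out in turn it ran from 0 (among others without any 1 of Col0 SHR replicate 1, hyl1 SHR replicate 1 and hyl1 SHR replicate 2) to 8 (without hyl1 WER replicate 1), and it was 6 in DESeq2 and 1 without the WER libraries.

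The genes whose levels over the 12 group means were most like each member are given as a description, since the groups share libraries' depth and scaling. For TMO5 they were AT5G57770 (Pearson r = 0.984), WAT1 (0.984) and MYB88 (0.979). For T5L1 they were FLA12 (0.968), NAC007 (0.964) and RBL2 (0.963). LHW, apart from the row with equal counts, was most like AT5G41140 (0.980) and AT1G30600 (0.959). LOG3 was most like AT4G08160 (0.992), AT1G24030 (0.962) and IRX6 (0.959), and AHP6 most like FIP1 (0.958), AT4G08160 (0.948) and AT1G24030 (0.943). LOG4 was nearest to AT1G65710 (0.942), SRT1 (0.936) and AT1G04590 (0.936), and WOL to AT2G43210 (0.953), AT3G60800 (0.905) and AT5G35690 (0.901). Among the members themselves r was highest between LOG3 and AHP6 (0.947), was 0.704 between TMO5 and T5L1, and was below 0 for WOL with each of the 6 others.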

How the data were processed

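The authors deposited raw counts of reads per gene for 33602 genes in 24 libraries. Per the submitters' processing notes, reads were handled with TopHat2 2.0.11, Bowtie2 2.2.1.0, CASAVA 1.8.2 and featureCounts of Subread, on TAIR10. The sources used here do not say how strand and multiple matches were treated, so antisense or near-identical genes may share counts. Counts were tested with edgeR 4.0.16 (R 4.3.3), by the quasi-likelihood F test on 12 groups with TMM scaling and 1 shared spread (common dispersion 0.126), after a filter at a minimum count of 10 and total of 15, which left 23219 genes. Adjusted p is Benjamini-Hochberg over all of them, and calls have it under 0.05. CPM use the TMM-scaled library size. The contrasts were hyl1 minus Col0 (mean of lines, each line, difference between lines), the SHR line minus the other layer lines or the 35S line, and all pairs of lines. The alternatives were RLE scaling, DESeq2 1.42.0, no filter, a replicate block, single-line fits, fits without the WER line or on 1 run of library numbers, and 1 library left out; fits without the ACR4 and WER lines and on the 35S, SHR and CO2 lines were chosen after seeing the data. Exon lengths came from the TAIR10.1 annotation. Named pathway genes are at most 4 called per list, by size of change, plus SAC51, chosen after its values were seen; gene markers came from fixed lists. The test of the mean hyl1 effect was checked on simulated counts, with changes in well-counted genes only. The other contrasts and genes with low counts were not checked in this way. Members and lists were chosen with earlier results of these data known. Sequences are not used here.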

Additional observations from a re-analysis of the deposited data

Results flagged for a closer look

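The effect of hyl1 on TMO5 differed between the 6 lines (edgeR adjusted p = 8.6e-05), with 2.42 in the ACR4 line and 3.16 in the WER line against −0.36 to 1.20 in the others. The effect on LHW also differed between lines (adjusted p = 0.0229), with 1.23 and 1.03 in the same lines against −0.02 to 0.56. The SHR line contrast of TMO5 differed between genotypes (adjusted p = 0.0177), at 1.096 in hyl1 and 2.91 in Col0. In the ACR4 line the stele marker sum averaged 326 CPM in hyl1 and 119 CPM in Col0, and in the WER line 535 CPM in hyl1 and 84.7 CPM in Col0. The part of these markers in the differences was not tested.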

How the results depend on the processing

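Of the settings tried, RLE scaling, DESeq2 and no filter left the number of members called unchanged within 1.5 times, except that DESeq2 called 1 in the SCR line. Without the WER libraries the SCR and CO2 lines each had 1 member that passed. In the SHR line against the 35S line T5L1, LOG3 and LOG4 then passed in hyl1, and T5L1 and LOG3 in Col0, with AHP6 left out. In the fit of the WER line alone 0 passed. Without the ACR4 and WER lines, and over the 35S, SHR and CO2 lines, 1 member passed in the mean hyl1 effect and 0 in the difference between lines, and over those 3 lines the TMO5 mean reversed to −0.0442. The log2 ratio of TMO5 to LHW was 0.317 without the WER libraries (exact permutation p = 0.118), 0.446 over the 16 libraries with consecutive numbers (0.071), 0.0953 without the ACR4 and WER lines (0.616) and −0.0790 over the 35S, SHR and CO2 lines (0.704).

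Replicate numbers did not pair the libraries (same-numbered deviations correlated at −0.11 to 0.07 by line). The replicate block left 1 member called for the difference between lines (LHW adjusted p = 0.0722) and 0 for the difference of the SHR contrast (TMO5 adjusted p = 0.0894), where it also left 0 pathway genes.

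With 1 library left out, members called (AHP6 included) ran from 2 to 4 in the mean hyl1 effect, 5 to 6 in the Col0 SHR contrast, 2 to 3 for ACR4, 0 to 1 in the SCR line, 2 to 4 in the WER line, 1 to 3 for the difference between lines, 1 to 6 in the hyl1 SHR contrast, 0 to 1 for its difference between genotypes, and 0 to 1 against the 35S line in either genotype. AHP6 entered the fit through its SHR libraries, so its calls in the comparisons of the SHR line are a description. The TMO5 to LHW ratio ran from 0.490 to 0.781. A lone library was assumed to vary like other groups. Of the results for single members under all settings, 2608 kept their side of the threshold (values that never passed could change sign), 37 newly passed, 53 no longer passed and 1 that had passed changed sign. Depth limits LOG3, LOG4 and AHP6.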
